A study of Danio rerio with 14 samples.

Results

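Gastrulation was followed from 6 to 8 h post fertilization (hpf) in zebrafish embryos that lack functional Bmp7, to ask which transcripts still change with time in them. Whole bmp7 mutant embryos gave 2 libraries at 6 hpf (shield, early gastrula) and 2 at 8 hpf (70% epiboly, mid-gastrula), chosen by the genotype and stage in the column headings, and these are 4 of the 14 libraries in the series. Each library holds the RNA of 40 dechorionated, untreated embryos homozygous for the bmp7a allele sb1aub. The comparison covered 10029 genes of the 13830 in the table, those with enough reads to test. The other libraries are 4 from untreated wild-type (TU) embryos of the same stages, also 40 a library, used here for comparison. The last 6 are from cycloheximide-treated mutants, 3 of them from embryos also injected with BMP2/7 protein. These 6 are used here only in an alternative fit and for their counts of bmp7a. The mutant embryos came from homozygous adults that had been rescued, and the wild-type embryos from other parents, so an effect of the mutation and a difference between the parents cannot be told apart. The table heads the wild-type libraries Aub-/+, whereas the sample labels give wild-type. No source says whether the libraries of a group came from separate crosses, so p-values measure the spread between these libraries.

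Bmp7 is a ligand of the bone morphogenetic protein (BMP) family, which acts in the fish gastrula as a heterodimer with Bmp2. The ligands signal through serine/threonine kinase receptors to Smad5, and the ventral side of the embryo, where signaling is strongest, forms epidermis and ventral mesoderm. On the dorsal side the organizer secretes antagonists such as Chordin, and cells there form notochord, prechordal plate and neural plate. Between 6 and 8 hpf the blastoderm spreads over the yolk, mesendoderm moves inward, maternal transcripts are cleared, and genes of the anterior-posterior axis are switched on.

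The mutated gene was low in the 4 untreated mutant libraries. Those from mutants treated with cycloheximide alone from 4 hpf held 187 to 438 counts of it, and those also injected with BMP2/7 held 319 to 517. bmp7a (RefSeq NM_131321) was at 2.85 and 1.63 CPM in the mutants at 6 hpf and 0.777 and 0.413 CPM at 8 hpf, where CPM is the count relative to the normalized library total. In wild-type it was at 56.4 and 52.3 CPM at 6 hpf and 35.4 and 38.4 CPM at 8 hpf, so the genotypes did not overlap. Within the mutants it fell further, by -2.11 on the log2 scale (8 over 6 hpf, standard error 0.44, adjusted p = 0.0193). The mutant libraries held 13725192 and 12816993 counts at 6 hpf and 5034277 and 19326577 at 8 hpf, so replicate 1 at 8 hpf is the shallowest of the 8 untreated libraries, whose largest total was 23153881. Of 7 markers of the enveloping layer, the epithelium that covers the embryo, 6 were tested, and their summed level was 6600 and 7150 CPM at 6 hpf and 8744 and 7716 CPM at 8 hpf. Of 6 markers of the yolk syncytial layer 4 were tested, at a summed 4672 and 6716 CPM and then 5331 and 5842 CPM, while mxtx2 and hnf4a had too few reads. Immediate-early genes, a sign of handling, summed to 762 and 621 CPM at 6 hpf and 644 and 600 CPM at 8 hpf over 11 of 14 listed genes, and the part of these marker levels in the results was not tested.

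A total of 1092 genes (10.9% of those tested) changed from 6 to 8 hpf in bmp7 mutants. Of these, 533 (5.31%) were higher and 559 (5.57%) lower at 8 hpf by the edgeR quasi-likelihood test, at a Benjamini-Hochberg adjusted p under 0.05 in a fit of the 8 untreated libraries. Scaling to library size alone turned the split into 619 higher and 473 lower, with all 14 libraries in the fit it was 747 and 1075, and without mutant 8 hpf replicate 2 it was 44 and 10. Genes of body-axis and neural patterning were among the largest rises, and genes of the germ plasm, of Nodal signaling and of the blastula among the falls. The rises reached at least 4-fold in 231 genes and at least 2-fold in 469, the falls at least 2-fold in 427, and the median log2 fold change over all genes was 0.03. The libraries of the stages did not overlap in any of the 1092 genes, whereas over all genes the 8 hpf libraries lay above those of 6 hpf in 31.8% and below them in 29.6%. Because whole embryos were sequenced, fewer cells of a type and less RNA per cell cannot be told apart. 16 clustered protocadherin genes (pcdh2g) had counts within 5% of each other in the 8 untreated libraries and rose together, and with these counted once the number of rises is 518.

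The number of calls rested heavily on single mutant libraries. With 8 hpf replicate 1 left out it was 274, with 8 hpf replicate 2 left out 54, with 6 hpf replicate 1 left out 135, and with 6 hpf replicate 2 left out 798, against 1084 to 1245 without a wild-type library. With 1 library left in a group, its spread is assumed to be that of the other groups. 53 genes were called whichever of the 8 libraries was left out, 43 higher and 10 lower. Among the 43 are hoxc3a, rx3, six7, shhb, tbx6 and myf5. The 10 lower ones, which are given here after their values were seen, are cxcr4b, ddx4, eve1, marcksl1b, ndrg1a, bnip3lb, cdc34a, prdx1, zgc:66479 and si:ch73-160h15.3.

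The wild-type embryos changed in the same direction for most of these genes. Over the same interval 176 genes (1.75%) were called in wild-type, 107 (1.07%) higher and 69 (0.688%) lower, and the count ran from 12 (without wild-type 6 hpf replicate 1) to 227 (without wild-type 6 hpf replicate 2) when single libraries were left out. Scaling to library size alone turned the split into 129 higher and 53 lower. Of the 533 genes that rose in the mutants, 508 had a positive log2 fold change in wild-type and 97 were called there. Of the 559 that fell, 535 had a negative one and 67 were called. These shared calls are 18.2% of the mutant rises and 90.7% of the wild-type rises, and 11.99% of the mutant falls and 97.1% of the wild-type falls. No gene was called in opposite directions. The changes in mutants and wild-type correlated with r = 0.692 across genes, which do not count as replicates. Among 8208 genes with an average log2 CPM of at least 1, the standard deviation of the log2 fold changes was 0.965 in mutants and 0.710 in wild-type. The log2 ratio of the 2 libraries within a group had standard deviations of 0.559 to 0.632, with those of wild-type inside that range. The 107 genes that rose in wild-type had a median log2 fold change of 2.67 there and 3.04 in the mutants, and for the 69 that fell the medians were -1.51 and -1.71. A test of the difference between the genotypes in their change with time called 0 genes (0%) by edgeR. Before adjustment 555 genes had p under 0.05, and DESeq2 called 28 and the edgeR likelihood ratio test 21.

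**Figure D1:**
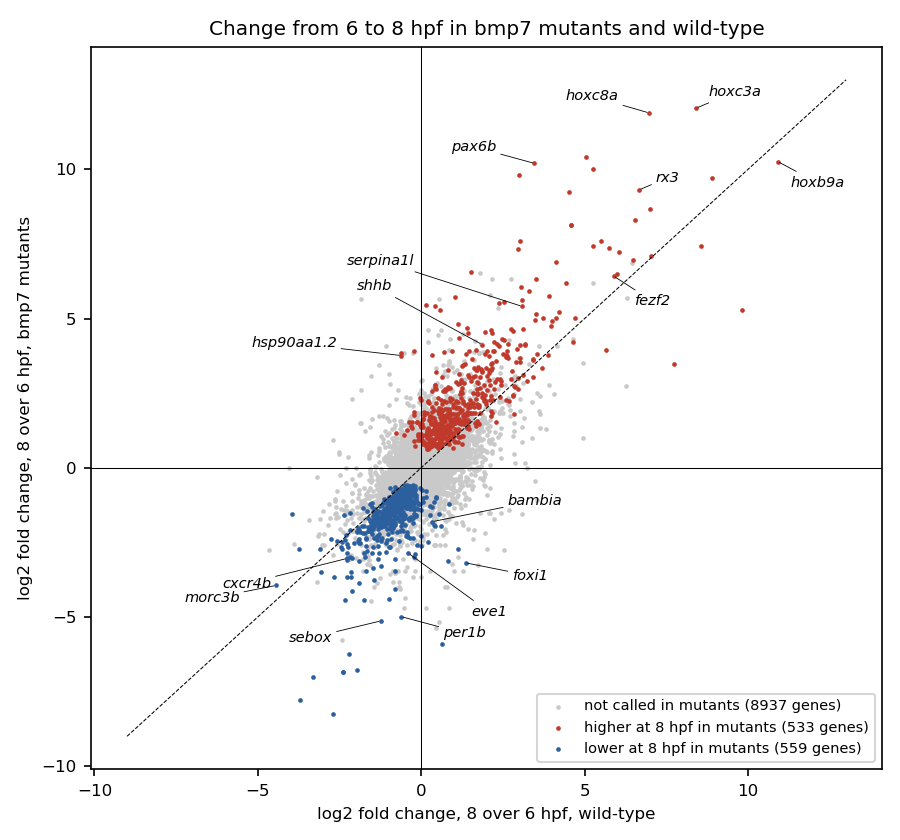
Log2 fold change from 6 to 8 hpf of each of 10029 genes in wild-type (horizontal axis) and bmp7 mutants (vertical axis), with the 533 genes called higher in mutants in red, the 559 called lower in blue, and the dashed line where both changes are equal. Most called genes lie in the quadrants where both genotypes change the same way, while foxi1 and bambia lie where the mutants fall and wild-type does not, and the values of genes with 0 counts at one stage depend on the prior count of the fit.

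Some Hox genes, which give cells their position along the anterior-posterior axis, went from almost no reads to clear expression. Of 45 Hox genes measured, 19 had enough reads to test. Of these 15 were called higher and 0 lower, against 5.31% and 5.57% over all genes. The filter lets a gene through on the stage where it is high, and 12 of the 19 had 0 counts in both 6 hpf mutant libraries, so this count is no support for a rise of the family. hoxc3a had 0 and 0 counts at 6 hpf and 24.1 and 43.1 CPM at 8 hpf, at least 329.5-fold higher when 3 counts over the group are taken as the floor (adjusted p = 0.000822). Wild-type embryos held 0.0528 and 0.0860 CPM and then 24.9 and 28.8 CPM. hoxc8a likewise went from 0 and 0 counts to 22.5 and 37.5 CPM, at least 289.9-fold (adjusted p = 0.00102), and in wild-type from 0.317 and 0.215 to 42.4 and 25.5 CPM. For both genes the 8 hpf libraries of the genotypes overlapped. hoxb7a rose from 0 and 0 counts to 7.96 and 13.22 CPM (at least 102-fold, adjusted p = 0.00152). hoxc6a rose from 0 and 0 counts to 6.99 and 9.24 CPM (at least 73.9-fold, adjusted p = 0.00249). The more posterior hoxb9a, at 0 and 0 counts at 6 hpf in either genotype, stood at 6.41 and 12.7 CPM in mutants and 22.96 and 7.70 CPM in wild-type at 8 hpf (at least 96.0-fold and at least 216-fold higher, with adjusted p = 0.00757 in mutants). hoxc6b was also at 0 in all 6 hpf libraries and at 4.08 and 8.88 CPM in mutants at 8 hpf (adjusted p = 0.0119). With 1 count over both 6 hpf mutant libraries, hoxb3a gave a ratio of 209 (95% counting interval 37.2 to 8314) and hoxc9a of 173 (95% counting interval 30.7 to 6887). hoxb8a, with 0 and 2 counts at 6 hpf and 5.24 and 8.47 CPM at 8 hpf, completes the named members. The rule that named them asked for no overlap of libraries between the stages, so its absence is no added support. All 9 of these rises overlapped in no library between the stages, and 9, 5, 5 and 9 of them were called without mutant 8 hpf replicates 1 and 2 and mutant 6 hpf replicates 1 and 2, in that order (adjusted p up to 0.110).

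Genes of the anterior neural plate, the precursor of forebrain and eyes, were among the largest rises in the mutants. Of 33 tested members of such a list 16 were higher and 0 lower, against 5.31% and 5.57% over all genes. Their median log2 fold change was 1.29, and in wild-type 9 were called higher. As with the Hox genes, these are the 33 of 53 genes that passed the filter, some through the 8 hpf libraries alone, so the count and the median are no support for a rise of the list. rx3, the homeobox gene of the eye field, stood at 0 and 0.244 CPM at 6 hpf and 50.1 and 109.7 CPM at 8 hpf, a ratio of 819 (95% counting interval 280.0 to 3976) (adjusted p = 0.00102). Its wild-type levels were 0.264 and 0.215 CPM at 6 hpf and 19.2 and 30.5 CPM at 8 hpf, so both mutant libraries at 8 hpf lay above both of wild-type. six7, a homeobox gene of the same region, rose from 19.4 and 28.4 to 280.1 and 371 CPM, a change of 3.77 on the log2 scale (standard error 0.28, adjusted p = 0.000822). In wild-type six7 rose from 22.6 and 31.7 to 157 and 171 CPM, a change of 2.59 (adjusted p = 0.00640). pax6b, which marks eye and forebrain, had 0 and 0 counts and then 4.47 and 13.7 CPM, at least 99.1-fold higher (adjusted p = 0.00399). fezf2, a zinc-finger gene of the forebrain, went from 0.0770 and 3.09 to 129 and 141 CPM (adjusted p = 0.00692), so that the 6 hpf libraries differed widely but neither approached those at 8 hpf. dmbx1a, a homeobox gene of the midbrain, gave a ratio of 70.5 (95% counting interval 23.8 to 345) between 0.154 and 0.0813 and 6.41 and 8.88 CPM. wnt8b, a forebrain Wnt ligand, rose from 0 and 0.163 to 4.85 and 10.6 CPM (adjusted p = 0.00461). otx2, which is already on in the early anterior plate, rose from 43.7 and 99.2 to 336 and 358 CPM (log2 fold change 2.28, standard error 0.39, adjusted p = 0.0103), while wild-type went from 23.3 and 43.1 to 146 and 157 CPM. Without each mutant library in turn, in the order given for the Hox genes, 7, 4, 6 and 7 of the 7 genes were called (adjusted p up to 0.0947).

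Several hindbrain and posterior neural genes rose as well. Of 29 members that passed the same filter, of 36 in all, 13 were higher and 0 lower, against 5.31% and 5.57% over all genes. Their median log2 fold change was 1.29, against 1.25 in wild-type. This count and median carry the limit given for the anterior list. meis3 and meis2b encode homeodomain partners of Hox proteins. meis3 rose from 9.70 and 22.9 to 164 and 213 CPM (log2 fold change 3.53, standard error 0.37, adjusted p = 0.00249), and meis2b from 3.002 and 6.83 to 138 and 177 CPM (log2 fold change 5.004, standard error 0.61, adjusted p = 0.00353). At 8 hpf wild-type reached 98.7 and 113.8 CPM of meis3 and 83.5 and 154 CPM of meis2b, so that the genotypes overlapped for meis2b only. nr2f5, an orphan nuclear receptor gene, went from 0 and 0.650 to 33.8 and 91.7 CPM in mutants (adjusted p = 0.00278) and from 0.106 and 0.172 to 7.79 and 5.87 CPM in wild-type. Its mutant levels at 8 hpf were thus above the wild-type ones without overlap, while the difference in the change with time had an unadjusted p of 0.191. nkx1.2la, a homeobox gene of the posterior neural plate, rose from 1.31 and 2.28 to 25.2 and 30.9 CPM (adjusted p = 0.00288). her5, a repressor gene of the midbrain-hindbrain boundary, rose from 10.2 and 10.97 to 71.4 and 73.5 CPM (adjusted p = 0.00456). In wild-type it rose from 5.02 and 6.67 to 14.3 and 30.2 CPM (adjusted p = 0.0341), below the mutants at both stages. The difference in its change with time had adjusted p = 0.906 by edgeR. her11, of the same family, rose from 13.9 and 30.2 to 86.8 and 92.7 CPM (adjusted p = 0.0119). Among genes on both the pan-neural and the anterior list, zic1 rose from 2.08 and 8.86 to 66.8 and 74.4 CPM (adjusted p = 0.00764) and zic2a from 110.8 and 132 to 272 and 321 CPM (adjusted p = 0.0120). The list of SoxB1 and other pan-neural genes was nevertheless mixed, with 3 higher and 2 lower of 16. Leaving out the mutant libraries as above kept 7, 5, 6 and 8 of 8 calls (adjusted p up to 0.119).

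**Figure D2:**
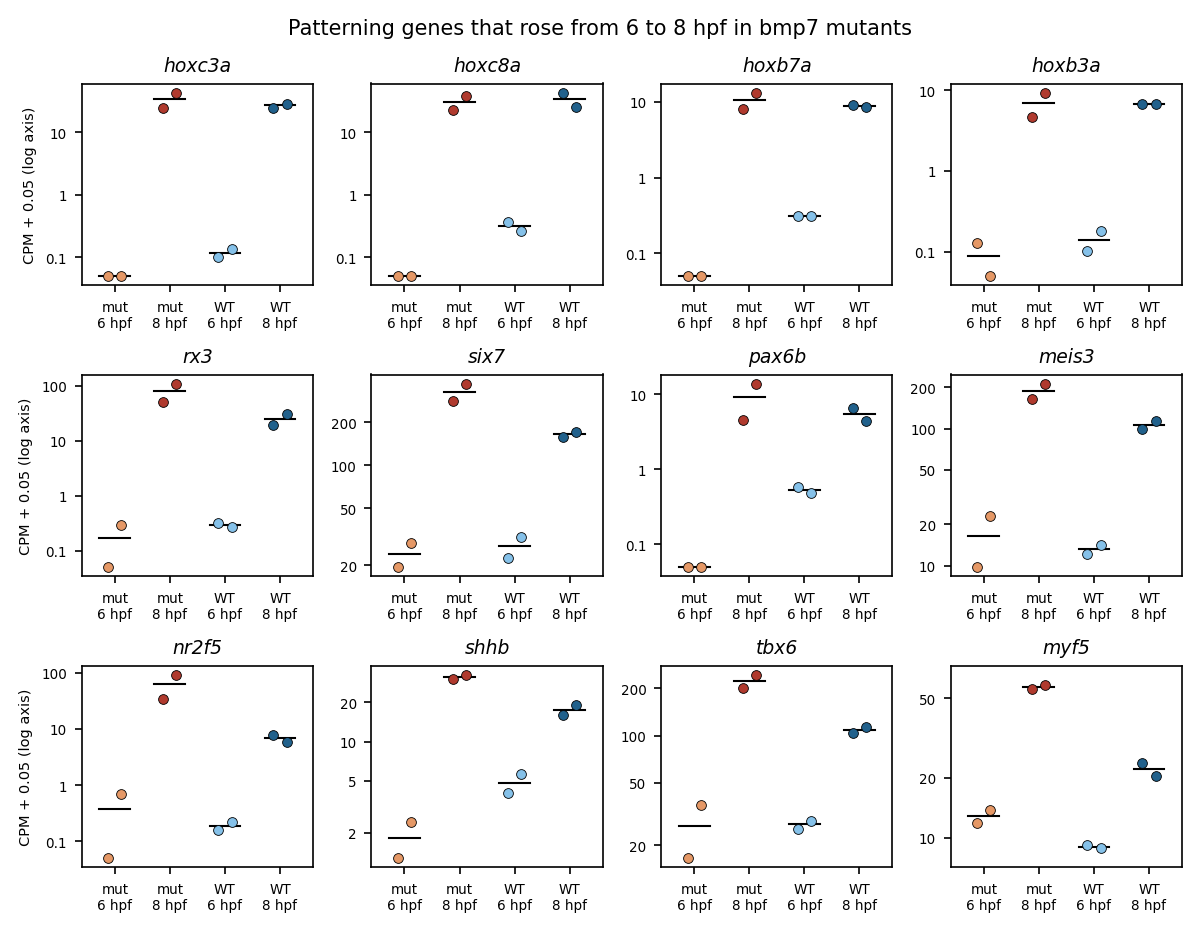
Level of 12 patterning genes in each library, as CPM plus 0.05 on a log axis, for bmp7 mutants (orange, 6 hpf, and red, 8 hpf) and wild-type (light blue, 6 hpf, and dark blue, 8 hpf), with points for the 2 libraries and a bar for their mean. In each panel both 8 hpf mutant libraries lie above both 6 hpf ones, for hoxc3a from 0 and 0 to 24.1 and 43.1 CPM.

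Retinoic acid is a vitamin A derivative that patterns the hindbrain and trunk, made by dehydrogenases, carried by binding proteins and degraded by Cyp26 enzymes. Of 20 tested genes of this pathway, of 29 measured, 5 were higher and 2 lower in mutants at 8 hpf. The shares over all genes were 5.31% and 5.57%, and in wild-type 2 of the 20 were called. The count carries the filter limit, since crabp2a passed through the 8 hpf libraries alone. Among binding proteins, crabp2a went from 0 and 0 counts to 3.49 and 5.89 CPM (at least 45.4-fold, adjusted p = 0.00895). Its paralog crabp2b, abundant from the start, rose from 389 and 482 to 859 and 790.3 CPM (log2 fold change 0.92, standard error 0.17, adjusted p = 0.0120). cyp26a1, the degrading enzyme, rose from 202 and 379 to 767 and 764 CPM (adjusted p = 0.0420) and stood at 216 and 358 CPM at 6 hpf and 400.0 and 709 CPM at 8 hpf in wild-type. The retinol dehydrogenase gene rdh10b fell from 445 and 297 to 222 and 173 CPM (log2 fold change -0.91, standard error 0.23, adjusted p = 0.0340). The retinol-binding protein gene rbp5 fell from 20 and 15 counts to 0 and 4 counts (adjusted p = 0.0433), too few reads for a precise fold. These were among the least stable calls, with 1, 0, 0 and 4 of 5 kept without the mutant libraries in the order above (adjusted p up to 0.278), and 4 of 5 called whichever wild-type library was left out. DESeq2 did not call rbp5 (adjusted p = 0.0718).

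Genes of the dorsal midline moved both ways. Of 22 tested genes of notochord and floor plate 5 were higher and 1 lower, and of 13 organizer genes 3 were higher and 2 lower. Over all genes 5.31% were higher and 5.57% lower. The first count carries the filter limit, since nkx2.9 passed through the 8 hpf libraries alone. shhb, a Hedgehog ligand of the floor plate, rose from 1.23 and 2.36 to 30.3 and 32.5 CPM, by 4.13 on the log2 scale (standard error 0.39, adjusted p = 0.00198). In wild-type shhb started higher, at 3.96 and 5.63 CPM, and ended lower, at 15.9 and 19.1 CPM. The difference in its change with time was 2.27 on the log2 scale (standard error 0.50, unadjusted p = 0.00130, adjusted p = 0.647 by edgeR and 0.0149 by DESeq2). A small p of this difference was also a rule by which shhb was named. nkx2.9 and nkx6.1, homeobox genes of the ventral neural tube, rose as well. nkx2.9 gave a ratio of 90.8 (95% counting interval 15.9 to 3627), and nkx6.1 went from 4.54 and 7.48 to 16.7 and 24.7 CPM (adjusted p = 0.0359). chrd, which encodes the BMP antagonist Chordin, rose from 411 and 674 to 1307 and 1148 CPM (log2 fold change 1.18, standard error 0.24, adjusted p = 0.0193). In wild-type chrd stood at 398 and 467 CPM at 6 hpf and 499 and 620.0 CPM at 8 hpf (adjusted p = 0.467). Both mutant libraries at 8 hpf lay above all wild-type libraries. The difference in the change of chrd with time was 0.81 on the log2 scale (adjusted p = 0.869 by edgeR). chrd and her11 are on the study's list of genes lowered by BMP. That list was chosen in part by differences between the genotypes in these libraries, so it is not independent evidence. frzb, a secreted Wnt antagonist of the prechordal plate, rose from 58.1 and 77.6 to 152 and 165 CPM (adjusted p = 0.00919), and ctslb, a protease gene of the hatching gland, from 0.539 and 1.14 to 12.04 and 16.6 CPM (adjusted p = 0.00353). The early mesoderm gene ta, the fish Brachyury, instead fell from 886 and 534 to 200.4 and 224 CPM (log2 fold change -1.74, standard error 0.25, adjusted p = 0.00672). lhx1a, a LIM-homeobox gene of the organizer and margin, fell from 106 and 42.7 to 10.7 and 10.7 CPM (adjusted p = 0.00597). In the same order of libraries left out, 5, 2, 4 and 7 of 8 calls were kept (adjusted p up to 0.246).

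In the mesoderm, several genes of the presomitic and muscle lineage rose. Of 36 tested genes of paraxial mesoderm and tailbud 8 were higher and 3 lower. Of 15 tested muscle genes, of 20 measured, 6 were higher and 0 lower, against 5.31% and 5.57% over all genes. The muscle member pax3a passed the filter through the 8 hpf libraries alone, so that count is no support for a rise of the list. tbx6, a T-box gene of presomitic mesoderm, rose from 16.6 and 36.2 to 203 and 245 CPM (log2 fold change 3.09, standard error 0.34, adjusted p = 0.00249), and in wild-type from 25.6 and 28.7 to 104 and 114.1 CPM. myf5, a myogenic factor, rose from 11.8 and 13.8 to 55.5 and 58.5 CPM (log2 fold change 2.16, standard error 0.23, adjusted p = 0.00249). Its wild-type levels were 9.14 and 8.82 CPM at 6 hpf and 23.7 and 20.3 CPM at 8 hpf, below the mutant ones at 8 hpf without overlap. smyd1b, a muscle methyltransferase gene, rose from 1.08 and 1.22 to 11.1 and 12.5 CPM (adjusted p = 0.00249). The segmentation gene mespbb rose from 0.847 and 1.056 to 11.8 and 6.82 CPM (adjusted p = 0.00762). The caudal genes cdx4 and cdx1a, which act upstream of Hox genes, both rose. cdx4 went from 259.9 and 364 to 614 and 653 CPM (adjusted p = 0.0124). cdx1a went from 3.46 and 13.7 to 48.3 and 60.1 CPM (adjusted p = 0.0126). For cdx1a the mutants at 8 hpf only reached the wild-type level at 6 hpf, 56.9 and 56.3 CPM, while wild-type rose to 224 and 167 CPM. Adhesion genes of migrating mesoderm rose, pcdh18a from 0.539 and 1.63 to 13.202 and 19.004 CPM (adjusted p = 0.00414) and cdh11 from 0.924 and 0.894 to 9.90 and 15.4 CPM (adjusted p = 0.00511). snai1a and snai2, repressors of E-cadherin expression, fell, snai1a from 417 and 262 to 145 and 116.7 CPM (adjusted p = 0.0169) and snai2 from 262 and 166 to 72.03 and 50.04 CPM (adjusted p = 0.00672). Of 22 tested genes of heart, blood, vessels and lateral mesoderm 2 were higher and 2 lower. Without the mutant libraries in turn 8, 5, 7 and 10 of 10 calls were kept (adjusted p up to 0.181).

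Early neuronal genes and genes of the neural plate border rose in part. Of 39 tested genes of neurogenesis and Notch signaling, of 49 measured, 10 were higher and 2 lower, against 5.31% and 5.57% over all genes. Members such as ebf2 and isl1 passed the filter through the 8 hpf libraries alone, so the count is no support for a rise of the list. ebf2, a factor of early neurons, had 0 and 0 counts at 6 hpf and 5.82 and 8.26 CPM at 8 hpf, at least 65.3-fold higher (adjusted p = 0.00671), and 1.30 and 0.296 CPM in wild-type at 8 hpf. isl1, a LIM-homeobox gene of primary neurons, gave a ratio of 64.0 (95% counting interval 11.1 to 2567). The Notch ligand gene dla rose from 16.3 and 27.3 to 65.2 and 87.1 CPM (log2 fold change 1.81, standard error 0.33, adjusted p = 0.0119), and her4.4, a target of Notch, from 0.154 and 0.406 to 4.66 and 2.79 CPM (adjusted p = 0.0159). Of 36 tested genes of the neural plate border, neural crest and placodes, of 47 measured, 10 were higher and 4 lower, and the same limit applies. twist1a, a factor of mesenchymal cells, rose from 1.001 and 5.20 to 55.5 and 48.7 CPM (adjusted p = 0.00639), above the 14.99 and 18.8 CPM of wild-type. pax3a, a paired-box gene of the border, gave a ratio of 102 (95% counting interval 17.9 to 4075). dlx3b and msx1a, homeobox genes of the same border, rose in the mutants but from and to lower levels than in wild-type. dlx3b went from 2.31 and 5.12 to 21.9 and 27.9 CPM (log2 fold change 2.76, standard error 0.48, adjusted p = 0.0104) against 14.1 and 34.1 to 140.3 and 120.8 CPM in wild-type. msx1a went from 0.308 and 1.056 to 4.47 and 6.66 CPM (adjusted p = 0.0105) against 7.55 and 5.89 to 18.8 and 27.8 CPM. These 8 calls were kept in 7, 0, 2 and 8 cases without the mutant libraries in turn (adjusted p up to 0.136).

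Some matrix and adhesion genes also changed. Of 45 tested genes of the extracellular matrix and integrins, of 58 measured, 10 were higher (22.2%) and 3 lower (6.67%). The shares over all genes were 5.31% and 5.57%, so the share of falls was near that over all genes. col4a5, a basement membrane collagen, rose from 3.62 and 6.01 to 32.6 and 49.4 CPM (log2 fold change 3.10, standard error 0.34, adjusted p = 0.00249). The collagen lysyl hydroxylase genes plod2 and plod1a rose, plod2 from 0.770 and 2.52 to 17.5 and 22.9 CPM (adjusted p = 0.00456) and plod1a from 3.002 and 6.501 to 17.9 and 26.2 CPM (adjusted p = 0.0102). sparc, a matrix glycoprotein, rose from 3.77 and 5.36 to 23.1 and 33.0 CPM (adjusted p = 0.00810). In wild-type it stood at 4.86 and 2.37 CPM at 6 hpf and 5.90 and 6.04 CPM at 8 hpf (adjusted p = 0.387). The difference in its change with time was 1.89 on the log2 scale (adjusted p = 0.727 by edgeR). sparc is also on the study's list of genes lowered by BMP, with the limit given for chrd. The fibronectin receptor subunit itga5 fell from 397 and 369 to 166 and 148 CPM (adjusted p = 0.00704). cdh1, which encodes E-cadherin, fell from 557 and 509 to 287 and 223 CPM (log2 fold change -1.07, standard error 0.20, adjusted p = 0.0136). Wild-type cdh1 went from 389 and 289.8 to 290.0 and 260.4 CPM (adjusted p = 0.477). The difference in its change with time was -0.76 on the log2 scale (adjusted p = 0.832 by edgeR). Besides the 16 pcdh2g genes that cannot be told apart, 4 of 20 tested cadherins and protocadherins rose, among them pcdh10b from 10.8 and 27.5 to 106 and 114.7 CPM (adjusted p = 0.00672) and pcdh19 from 1.54 and 4.55 to 32.4 and 26.9 CPM (adjusted p = 0.00672). postnb, a periostin gene, fell from 5.93 and 4.63 to 0.971 and 0.826 CPM (adjusted p = 0.00569), against 19.5 and 21.4 CPM at 6 hpf and 15.8 and 21.3 CPM at 8 hpf in wild-type. Of these 9 calls 8, 2, 6 and 9 were kept without the mutant libraries in turn (adjusted p up to 0.172).

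**Figure D3:**
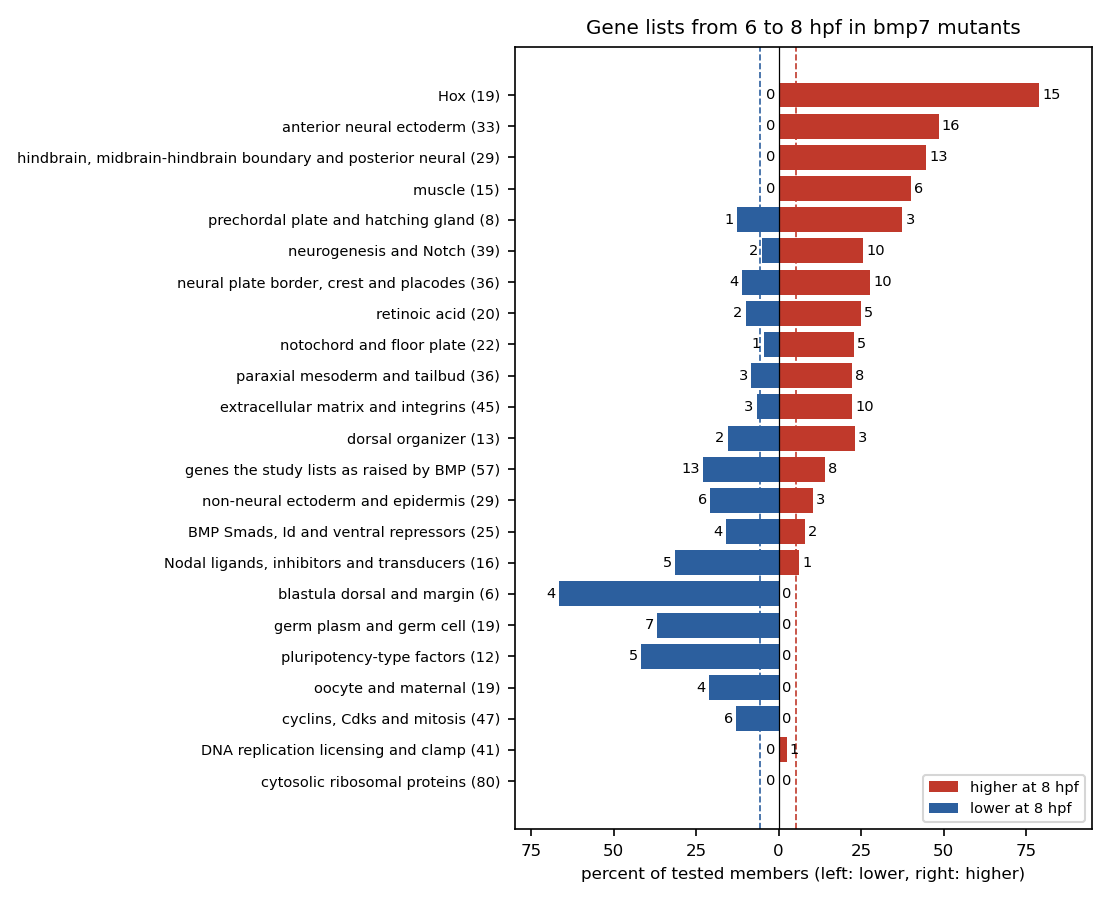
Share of the tested members of 23 gene lists called higher (red, right) or lower (blue, left) at 8 hpf than at 6 hpf in bmp7 mutants, in percent, with the number called beside each bar, the number tested in brackets and dashed lines at the shares over all genes (5.31% higher, 5.57% lower). Among the lists shown, the Hox, neural and muscle lists extend mainly to the right and the germ plasm, maternal and blastula lists to the left. The 23 are part of 45 lists. Those not shown include mixed ones, such as SoxB1 and pan-neural genes (3 higher and 2 lower of 16) and the enveloping layer (4 and 4 of 19). The lists of non-neural ectoderm and of BMP Smads, Id and ventral repressors have more members lower than higher. Every bar rests on the genes that passed the filter, for Hox 19 of 45.

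Several transcripts of the germ plasm and of the oocyte fell. The 4 germ cell markers summed to 386 and 289.6 CPM at 6 hpf and 71.3 and 62.7 CPM at 8 hpf, against 310.5 and 216 CPM and then 77.3 and 76.7 CPM in wild-type. Of 19 tested germ plasm and germ cell genes 7 were lower and 0 higher, against 5.57% and 5.31% over all genes. Their median log2 fold change was -1.19, and 4 were called lower in wild-type. ddx4, the germ-cell helicase Vasa, fell from 362 and 261 to 63.1 and 46.4 CPM (log2 fold change -2.52, standard error 0.28, adjusted p = 0.00265). In wild-type it fell from 294 and 188 to 68.7 and 62.6 CPM (adjusted p = 0.0181), so the genotypes ended at like levels. cxcr4b, a chemokine receptor that guides primordial germ cells, fell from 356 and 223 to 45.8 and 25.6 CPM (log2 fold change -3.04, standard error 0.35, adjusted p = 0.00278), with 179.6 and 183 CPM at 6 hpf and 45.2 and 30.4 CPM at 8 hpf in wild-type. gra, a germ plasm transcript, fell from 39.2 and 33.2 to 12.4 and 11.8 CPM (adjusted p = 0.00789) and ca15b from 15.7 and 15.5 to 4.47 and 4.75 CPM (adjusted p = 0.00823). Of 19 tested oocyte and maternal genes 4 were lower and 0 higher (median -0.77). npm2a, an egg nucleoplasmin, fell from 15.7 and 12.3 to 3.30 and 1.03 CPM (adjusted p = 0.0105), and the linker histone gene of the early embryo h1m from 97.1 and 138 to 49.7 and 35.5 CPM (adjusted p = 0.0258). fbxo5, an inhibitor of the anaphase-promoting complex, fell from 310.0 and 371 to 148 and 119.9 CPM (adjusted p = 0.00566). The oocyte kinase gene wee2 fell from 11.5 and 8.94 to 3.49 and 2.38 CPM (adjusted p = 0.0244) and the zinc-finger gene cth1 from 33.1 and 19.5 to 9.32 and 4.60 CPM (adjusted p = 0.0186). Among 12 factors of the pluripotency type 5 were lower and 0 higher. pou5f3, which with Nanog and SoxB1 starts zygotic transcription, fell from 2259 and 1441 to 699 and 551 CPM (log2 fold change -1.57, standard error 0.23, adjusted p = 0.00637) and in wild-type from 1572 and 1486 to 595 and 597 CPM (adjusted p = 0.0257). Of these 11 calls, foxh1 below included, 7, 2, 6 and 10 were kept without the mutant libraries in the order above (adjusted p up to 0.232).

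Several genes of Nodal signaling, which induces mesoderm and endoderm at the margin before gastrulation, fell. Of 16 tested genes of a list of Nodal ligands, inhibitors, transducers and related genes 5 were lower and 1 higher. The 5 include the Nodal-induced mixl1 and the apelin receptor gene aplnrb. The median log2 fold change of the list was -0.31 in mutants and -0.51 in wild-type. Of 6 blastula genes of the dorsal side and margin 4 were lower, against 5.57% over all genes. ndr1, which is in both counts, passed the filter through the 6 hpf mutant libraries alone. Neither count is therefore support for a fall of its list. Among ligands, ndr1 (Squint) fell from 28 and 19 counts to 0 and 2 counts, a ratio of 6 over 8 hpf of 22.8 (95% counting interval 5.96 to 194), and gdf3, its co-ligand Vg1, from 83.4 and 72.7 to 20.97 and 10.6 CPM (log2 fold change -2.34, standard error 0.32, adjusted p = 0.00566). lft2, which encodes a Nodal inhibitor of the Lefty class, rose from 12.2 and 23.2 to 47.4 and 58.6 CPM (adjusted p = 0.0186). The transducer foxh1, which binds DNA with Smad2, fell from 527 and 304 to 134 and 83.97 CPM (log2 fold change -1.94, standard error 0.30, adjusted p = 0.00799). Wild-type foxh1 went from 339 and 408 to 239.9 and 248 CPM (adjusted p = 0.317). The difference in its change with time was -1.32 on the log2 scale (adjusted p = 0.784 by edgeR). Of the Nodal-induced homeobox genes, sebox fell from 48.0 and 5.20 to 0.582 and 0.826 CPM (adjusted p = 0.0135), and 1 library at 6 hpf was far above the other. mixl1 fell from 51.5 and 20.8 to 2.91 and 2.84 CPM (log2 fold change -3.65, standard error 0.46, adjusted p = 0.00409), and in wild-type from 21.7 and 29.8 to 5.79 and 5.75 CPM (adjusted p = 0.0394). mxtx1, a homeobox gene of the yolk syncytial layer, fell from 51.7 and 25.5 to 11.6 and 11.8 CPM (adjusted p = 0.0352). Receptor genes of involuting mesendoderm fell too, cxcr4a from 233 and 183 to 90.1 and 84.4 CPM (adjusted p = 0.00637) and the apelin receptor gene aplnrb from 190.4 and 177 to 108 and 87.8 CPM (adjusted p = 0.0135). nnr, expressed in the blastula, fell from 444 and 386 to 180.0 and 177 CPM (adjusted p = 0.0127). Besides foxh1, counted with the maternal genes, 3, 0, 3 and 8 of these 9 calls were kept without the mutant libraries in turn, and none through all of them (adjusted p up to 0.238).

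**Figure D4:**
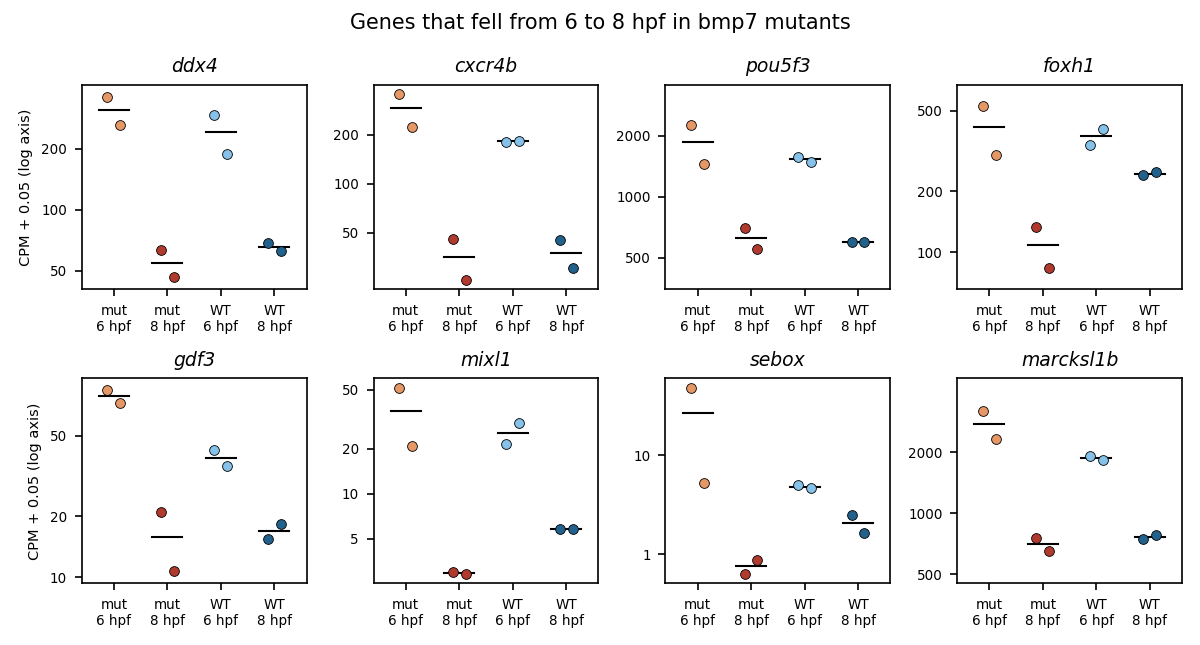
Level of 8 genes in each library, as CPM plus 0.05 on a log axis, for bmp7 mutants (orange, 6 hpf, and red, 8 hpf) and wild-type (light blue, 6 hpf, and dark blue, 8 hpf), with points for the 2 libraries and a bar for their mean. Both 8 hpf mutant libraries lie below both 6 hpf ones in every panel, for ddx4 at 63.1 and 46.4 CPM against 362 and 261 CPM.

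Several genes downstream of BMP fell with time in the mutants, and neither foxi1 nor bambia, ved, vox, id3, id4, tfap2c or eve1 was called in wild-type. foxi1, a forkhead gene of the non-neural ectoderm, fell from 9.47 and 4.79 CPM to 0.777 and 0.775 CPM (4 and 15 counts), by -3.19 on the log2 scale (standard error 0.54, adjusted p = 0.0101). In wild-type it stood at 29.6 and 62.2 CPM at 6 hpf and 110.99 and 127 CPM at 8 hpf, a change of 1.37 (standard error 0.38, adjusted p = 0.108). The stages thus separated in both genotypes, in opposite directions, and the difference in the change with time was -4.56 (standard error 0.66, unadjusted p = 6.17e-05, adjusted p = 0.329 by edgeR and 1.19e-08 by DESeq2). bambia, a pseudoreceptor that dampens BMP signaling, fell from 91.6 and 59.5 to 20.4 and 22.6 CPM (log2 fold change -1.81, standard error 0.23, adjusted p = 0.00399). Wild-type bambia went from 185 and 189 to 237 and 238 CPM (adjusted p = 0.450), and the difference of -2.15 had adjusted p = 0.329 by edgeR and 2.49e-05 by DESeq2.

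Other genes of this group fell as well. ved and vox, homeodomain repressors of dorsal genes, both fell. For ved the levels were 53.1 and 50.8 and then 22.1 and 20.8 CPM (log2 fold change -1.28, standard error 0.18, adjusted p = 0.00566), and for vox 199.9 and 210.6 and then 109 and 100.1 CPM (log2 fold change -0.97, standard error 0.17, adjusted p = 0.0110). In wild-type ved went from 154 and 159.8 to 205 and 171 CPM and vox from 179.7 and 158 to 208 and 250.1 CPM. At 6 hpf the mutant libraries lay below wild-type for ved and above it for vox, and at 8 hpf they lay below it for both. id3, an inhibitor of bHLH factors and a Smad target, fell from 168 and 162 to 82.1 and 81.9 CPM (adjusted p = 0.0107) while wild-type went from 131 and 103 to 166 and 154 CPM. id4 fell from 2.85 and 3.98 to 0.971 and 0.361 CPM (adjusted p = 0.0257), with 6.07 and 11.3 CPM at 6 hpf and 7.26 and 10.1 CPM at 8 hpf in wild-type. tfap2c, an AP-2 factor of the non-neural ectoderm, fell from 120.8 and 85.4 to 48.0 and 36.3 CPM (adjusted p = 0.0107) and stood at 247 and 302 CPM at 6 hpf and 332 and 361 CPM at 8 hpf in wild-type. eve1, a homeobox gene of the ventral margin, fell from 74.9 and 55.3 to 10.5 and 7.80 CPM (log2 fold change -2.86, standard error 0.30, adjusted p = 0.00249), and wild-type held 157 and 103 CPM at 6 hpf and 89.7 and 108 CPM at 8 hpf (adjusted p = 0.477). The differences between the genotypes in these changes had adjusted p = 0.334 (ved), 0.334 (vox), 0.334 (id3) and 0.334 (eve1) by edgeR, and 0.00367, 0.00599, 0.00599 and 4.24e-05 by DESeq2. A small p of this difference was also a rule that named foxi1, bambia, ved, id3 and eve1, so for them it is no added support. szl, which encodes the secreted inhibitor Sizzled, had 0 and 0 counts at 6 hpf and 0 and 1 at 8 hpf in mutants, too few for a fold, and 6.97 and 4.65 and then 26.04 and 11.9 CPM in wild-type.

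**Figure D5:**
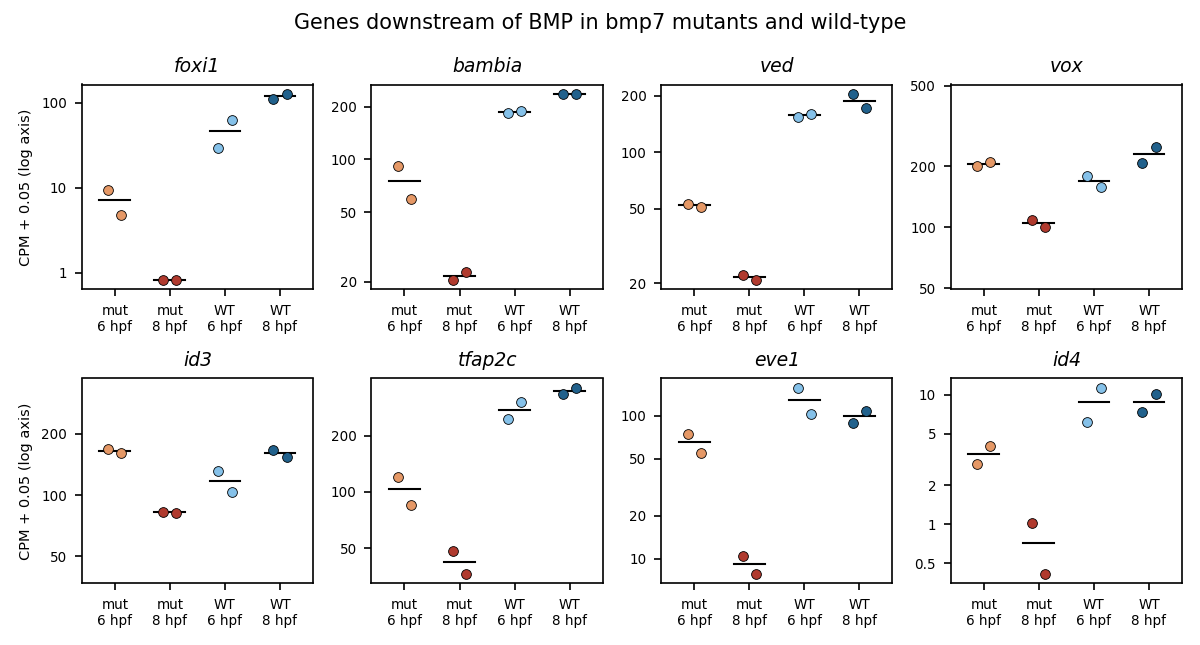
Level of 8 genes downstream of BMP in each library, as CPM plus 0.05 on a log axis, for bmp7 mutants (orange, 6 hpf, and red, 8 hpf) and wild-type (light blue, 6 hpf, and dark blue, 8 hpf), with points for the 2 libraries and a bar for their mean. The mutant libraries fall from 6 to 8 hpf in each panel, for bambia from 91.6 and 59.5 CPM to 20.4 and 22.6 CPM, while wild-type does not fall in 6 of the panels and its libraries overlap in those of eve1 and id4.

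Not all such genes fell. Of the 57 genes that the study lists as raised directly by BMP, 13 were lower and 8 higher at 8 hpf in mutants. In wild-type 1 was lower and 4 higher. Over all genes 5.57% were lower and 5.31% higher in mutants, and 0.688% and 1.07% in wild-type. That list was chosen on libraries of this series, in part by the difference between wild-type and mutants at these stages. It is thus not independent evidence of a direction or of a difference between the genotypes. The median log2 fold change of the list was -0.05 in mutants and 0.41 in wild-type. For 17 of the 57 the change was lower in mutants than in wild-type at an unadjusted edgeR p under 0.05. For 2 of the 57 it was higher, against 269 lower and 286 higher of all 10029 genes. The risers include msx1a, dlx3b, cdx1a, pcdh18a and crabp2b, whose levels are given above. Of 15 genes whose change with time differed between the genotypes by both DESeq2 and the edgeR likelihood ratio test, 10 were lower in mutants and 7 are on that list. The limit of the list holds for these 7 as well. Of 22 tested BMP ligands, antagonists and receptors 2 were higher and 4 lower. The receptor gene bmpr1ba rose from 5.54 and 7.56 to 21.9 and 27.1 CPM (adjusted p = 0.00823), with 7.08 and 5.81 CPM at 6 hpf and 10.1 and 9.72 CPM at 8 hpf in wild-type. bmper, a secreted modulator that binds BMPs, fell from 34.8 and 33.4 to 17.3 and 17.5 CPM (adjusted p = 0.0213), and bmp1a, a protease of the family that cleaves Chordin, from 25.02 and 23.6 to 13.202 and 12.03 CPM (adjusted p = 0.0273). Both also declined by value in wild-type, to 27.8 and 26.2 and 25.6 and 26.5 CPM. Of 29 genes of non-neural ectoderm and epidermis 6 were lower and 3 higher in mutants. Of the 11 falls and rises of BMP-related genes given from foxi1 to bmp1a, szl apart, 5, 1, 3 and 8 were kept without mutant 8 hpf replicates 1 and 2 and mutant 6 hpf replicates 1 and 2 (adjusted p up to 0.277), and of them eve1 alone stayed called whichever library was left out.

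Among the genes named by the rules in the methods, the chaperone genes hsp90aa1.2, hspa5, hspa13, unc45b and canx rose in the mutants. They come from no chaperone list, and the histone chaperone gene anp32b, also named by these rules, fell (log2 fold change -0.57). All of the risers but canx started from 6 hpf levels below wild-type. hsp90aa1.2, which encodes a cytosolic Hsp90, stood at 53.04 and 10.6 CPM at 6 hpf and 308 and 553 CPM at 8 hpf (log2 fold change 3.76, standard error 0.97, adjusted p = 0.0388). The wild-type libraries held 1895 and 1118 CPM and 1741 and 231 CPM, so its stages overlapped. hspa5, the endoplasmic reticulum chaperone BiP, rose from 75.4 and 118.7 to 178 and 257 CPM (adjusted p = 0.0491), against 358 and 446 CPM at 6 hpf and 296 and 170.4 CPM at 8 hpf in wild-type. hspa13, of the same Hsp70 family, rose from 3.85 and 3.90 to 12.04 and 10.4 CPM (adjusted p = 0.0132), and stood at 18.3 and 15.4 CPM at 6 hpf and 13.9 and 12.2 CPM at 8 hpf in wild-type. unc45b, a chaperone of muscle myosin, rose from 44.6 and 37.6 to 108 and 113.8 CPM (log2 fold change 1.43, standard error 0.21, adjusted p = 0.00692), with 70.9 and 59.0 CPM at 6 hpf and 71.7 and 54.5 CPM at 8 hpf in wild-type. canx, the lectin chaperone calnexin, rose from 788 and 711 to 1187 and 1183 CPM (adjusted p = 0.0345), with 630.1 and 767 CPM at 6 hpf and 1058 and 947 CPM at 8 hpf in wild-type. The list of immediate-early and stress genes as a whole had 3 higher and 3 lower of 30, against 5.31% and 5.57% over all genes. serpina1l, a serpin gene, and tmem45b, a membrane protein gene, rose more in mutants than in wild-type by value. Both, like hspa13 and unc45b, were named by the small p of this difference, so the difference is no added support. serpina1l rose from 0.693 and 0.569 to 29.7 and 24.8 CPM (log2 fold change 5.41, standard error 0.37, adjusted p = 0.000822), against 3.08 on the log2 scale in wild-type. tmem45b rose from 2.77 and 3.25 to 17.5 and 18.4 CPM (adjusted p = 0.00307), with 10.2 and 13.8 CPM at 6 hpf and 20.01 and 17.9 CPM at 8 hpf in wild-type. The differences in the change with time had adjusted p = 0.555 (unc45b), 0.599 (hspa13), 0.515 (serpina1l) and 0.599 (tmem45b) by edgeR, and 0.0260, 0.0399, 0.0471 and 0.0335 by DESeq2. Without the mutant libraries in turn 3, 2, 3 and 4 of 7 rises were kept (adjusted p up to 0.310).

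Several genes of the enveloping layer and the yolk syncytial layer, which are not part of the embryo proper, changed. Of 19 tested enveloping layer genes 4 were higher and 4 lower, against 5.31% and 5.57% over all genes. krt17, a keratin of that layer, rose from 328 and 388 to 663 and 606 CPM (log2 fold change 0.83, standard error 0.16, adjusted p = 0.0148), and cyt1l, another keratin gene, from 187 and 227 to 341 and 375 CPM (adjusted p = 0.0378). agr1, which encodes a protein disulfide isomerase of the epidermis, rose from 109 and 117.8 to 255 and 217 CPM (adjusted p = 0.0362). Of 18 tested claudin genes 3 were lower (16.7%) and 1 higher (5.56%, near the share over all genes). The riser was cldnd1a, from 4.16 and 6.09 to 17.9 and 17.7 CPM (adjusted p = 0.0215). The claudin gene cldne went from 1081 and 891 to 512 and 437 CPM (adjusted p = 0.0116), with 622 and 771 CPM at 6 hpf and 386 and 456 CPM at 8 hpf in wild-type. tjp3, a tight junction scaffold, went from 203 and 184 to 91.4 and 67.1 CPM (adjusted p = 0.0119), and evpla, the cell envelope protein envoplakin, from 790.1 and 527 to 295 and 265 CPM (adjusted p = 0.0119). grhl2a, a grainyhead factor, fell from 70.7 and 55.2 to 28.2 and 17.9 CPM (adjusted p = 0.0152). Of 21 tested genes of the yolk syncytial layer and of lipoproteins 4 were higher (19.0%) and 1 lower (4.76%, near the share over all genes). serpina1, a protease inhibitor gene, rose from 2.002 and 3.49 to 37.7 and 35.8 CPM (log2 fold change 3.74, standard error 0.37, adjusted p = 0.00235), and in wild-type from 4.49 and 2.80 to 23.6 and 21.1 CPM (adjusted p = 0.0143). Apolipoprotein genes rose by different amounts. apoa2 went from 4.93 and 6.75 to 14.4 and 19.5 CPM (adjusted p = 0.0142) and apoa1b from 51.7 and 166 to 376 and 464 CPM (adjusted p = 0.0424). apoa4b.2 rose from 6.93 and 3.98 to 12.8 and 15.7 CPM (adjusted p = 0.0380) and stood at 21.02 and 29.9 CPM at 6 hpf and 17.5 and 23.2 CPM at 8 hpf in wild-type, whose stages overlapped. Without the mutant libraries in turn 4, 1, 1 and 9 of 12 calls were kept (adjusted p up to 0.241).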

How the data were processed

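Deposited values were raw read counts per RefSeq transcript in 14 libraries. According to the methods, the authors made stranded polyA libraries, aligned reads to GRCz11 with RNA-seq Unified Mapper and compared groups with edgeR. The sources used here name no aligner version, counting tool or strand setting, so reads of a gene and an overlapping antisense gene may not be told apart. The table also holds the authors' normalized log2 values and their own comparisons (fold changes, p-values and the like), which were not used. 14 symbols turned into dates were restored from the accession.

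Of 14532 transcripts 10555 passed filterByExpr (minimum count 10) in edgeR 4.0.16 (limma 3.58.1, R 4.3.3). The 8 untreated libraries entered 1 fit of 4 groups of 2, with TMM normalization and the quasi-likelihood F test. Benjamini-Hochberg adjustment ran over all transcripts, and the transcript with the highest mean count stood for its gene. Log2 fold changes have as standard error their size over the root of F. The biological coefficient of variation was 0.27. Replicate numbers were read from the column headings, and the authors' comparison headings pair the genotypes the other way around from the library headings, which were followed. For groups with 0 counts, bounds use 3 counts over the group. Ratios of few counts have exact 95% intervals, and these cover counting error only. The pipeline was tested on simulated data.

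The members and lists were chosen with earlier results of these data known. Named were bmp7a, the 15 genes per direction with the largest called change at an average log2 CPM of at least 1, the 6 most abundant, up to 4 called members per direction of each of 45 lists with the smallest p (where none was called, the member with the smallest p), the 5 per direction with the smallest p for the difference between genotypes, and szl, foxi1 and bambia. For the largest changes the libraries of the stages also had to lie apart, without overlap. Values are given here for part of the named genes. Alternatives were the exact, likelihood ratio and DESeq2 1.42.0 tests, RLE or library-size scaling, other filters, other libraries in the fit, a replicate block, thinning and leaving out each library.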

Additional observations from a re-analysis of the deposited data

Results flagged for a closer look

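For 9 of the genes named by the rules the stages separated in opposite directions in mutants and wild-type, without overlap of libraries in either. For 14 further genes called in mutants they did so as well. Of the 533 rises and 559 falls called in mutants, 25 and 24 had an opposite or 0 change in wild-type. Opposite separation was thus seen in few called genes, and its share over all genes was not counted. The values are the log2 change in mutants minus that in wild-type. It was -4.56 for foxi1, -2.15 for bambia, -1.63 for tfap2c, -1.54 for ved, -1.46 for id3 and -1.42 for vox, which fell in mutants, and -3.94 for rbp5, which rests on 20 and 15 counts at 6 hpf and 0 and 4 at 8 hpf in mutants. It was 1.95 for hspa5 and 1.89 for hspa13, which rose in mutants. The interaction test of edgeR called none of the 9 (adjusted p of 0.329 or more), with 555 of 10029 genes at an unadjusted p under 0.05, whereas DESeq2 called 8 of them, all but rbp5. The rules named foxi1, bambia, ved, id3 and hspa13 in part by the p of this difference. Each group holds 2 libraries.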

How the results depend on the processing

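The direction of every named change in the mutants stayed the same under the alternatives, except for szl, whose 1 count lies in mutant 8 hpf replicate 2: without that library its mutant value was 0 (adjusted p = 1) and its difference from wild-type -1.71, and DESeq2 gave a difference of -0.0867. Over all single libraries left out, its values ran from 0 to 3.02 and its differences from -1.71 to 1.55. The number of genes called in mutants, 1092, was 1680 with the likelihood ratio test, 1822 with all 14 libraries in the fit and 187 at an adjusted p under 0.01, and 906 to 1559 under the other settings. Leaving out single libraries gave 54 to 1245. The wild-type count of 176 was 598 with the exact test, 639 with the likelihood ratio test, 576 with DESeq2, 389 with no filter on low counts, 8 with its 4 libraries alone, 546 with all 14 libraries and 10 at an adjusted p under 0.01, and 12 to 227 without single libraries. The count of genes that differed between the genotypes, 0 by the quasi-likelihood test, was 21 with the likelihood ratio test, 28 with DESeq2, 3 with no filter, 2 with all 14 libraries, and 0 to 6 without single libraries, with 6 without wild-type 8 hpf replicate 1. Causes were not tested. With a replicate block, 1652 genes were called in mutants, 525 in wild-type and 0 for the difference. Only 2 pairs exist per comparison and no source ties the numbers, so the samples share only a number. The deviations of same-numbered 6 and 8 hpf libraries correlated at 0.346 in mutants and 0.472 in wild-type. Of the 188 named genes, which include some not called, 73 kept the same outcome, called or not, at an adjusted p under 0.01. With mutant 8 hpf replicates 1 and 2 left out in turn, 96 and 32 did, and with those of 6 hpf, 63 and 144. In mutant 8 hpf replicate 1, the total of 5034277 counts limits what can be seen of genes below about 1 CPM.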

Other observations

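Most of the falls given here, among the largest and most abundant in the mutants, belong to none of the groups above. per1b, a period gene of the circadian clock, fell from 25.9 and 11.7 to 0.971 and 0.413 CPM (adjusted p = 0.0119), while wild-type held 3.12 and 1.63 CPM at 6 hpf and 0.413 and 2.67 CPM at 8 hpf. lmo1, a LIM-only cofactor, fell from 29.4 and 27.2 to 3.11 and 1.65 CPM (adjusted p = 0.00566) and in wild-type from 25.9 and 18.7 to 2.60 and 6.58 CPM (adjusted p = 0.0454). The chromatin genes morc3b and satb1a both fell. For morc3b the levels were 4.16 and 2.76 and then 0.388 and 0.155 CPM (adjusted p = 0.0104), with 10.7 and 6.41 CPM at 6 hpf and 0.531 and 0.237 CPM at 8 hpf in wild-type. For satb1a they were 14.8 and 11.2 and then 1.36 and 0.671 CPM (adjusted p = 0.0115). sid1 fell from 48.0 and 31.9 to 4.27 and 3.05 CPM (adjusted p = 0.00456), and arl13a, a small GTPase gene, from 68.5 and 24.2 to 5.24 and 2.12 CPM (adjusted p = 0.00810). cldna, one of the lower claudin genes counted above, fell from 15.01 and 7.48 to 1.36 and 0.930 CPM (adjusted p = 0.00956). The calcium-binding hpcal1 fell from 3.23 and 3.49 to 0.388 and 0.258 CPM (adjusted p = 0.0101). For each of these the libraries of the stages did not overlap in the mutants, as the rule that named them required. The abundant marcksl1b, which encodes a membrane-cytoskeleton linker, fell from 3194 and 2339 to 752 and 654 CPM (log2 fold change -1.98, standard error 0.19, adjusted p = 0.00198) and in wild-type from 1919 and 1826 to 749.8 and 779 CPM (adjusted p = 0.0177). Smaller falls were those of the histone variant gene h3f3a (-0.63 on the log2 scale, adjusted p = 0.0466), the histone chaperone gene anp32b (-0.57, adjusted p = 0.0398) and the RNA-binding rbm4.3 (-0.84, adjusted p = 0.0348). Of these 12 genes 7, 1, 4 and 10 were called without mutant 8 hpf replicates 1 and 2 and mutant 6 hpf replicates 1 and 2 (adjusted p up to 0.277), and 10 whichever wild-type library was left out.

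The 80 cytosolic ribosomal protein genes tested had a median log2 fold change of 0.37 in mutants and 0.29 in wild-type, and the 37 proteasome genes of 0.24 and 0.13, against 0.03 and 0.01 over all genes. Of the ribosomal protein genes 73 had a positive value in mutants and 78 in wild-type, but 0 were called in either genotype. The proteasome genes likewise had 0 calls. The summed ribosomal levels overlapped between the stages in both genotypes, at 33728 and 50429 and then 50035 and 58422 CPM in mutants. Genes of a list do not count as replicates. Of 41 genes of DNA replication 1 was higher and 0 lower, against 5.31% and 5.57% over all genes. Of 47 genes of cyclins and mitosis 6 were lower and 0 higher, with medians of -0.35 in mutants and -0.39 in wild-type, and their summed level went from 11521 and 11422 CPM to 8135 and 7821 CPM in mutants. Of 78 respiratory chain genes 4 were higher (5.13%) and 1 lower (1.28%), no more than the shares over all genes. Among signaling lists, against 5.31% higher and 5.57% lower over all genes, there were 6 higher and 1 lower of 49 Wnt genes, 3 and 1 of 30 FGF genes, and 6 and 6 of 51 genes of gastrulation movement. The her and hey repressors had 6 higher and 0 lower of 17. The filter limit applies to these signaling and repressor lists too, since members such as wnt8b and her4.4 passed through the 8 hpf libraries alone. Their counts are thus no support for a rise of a list.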
